A study of Homo sapiens with 16 samples.

Results

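All 16 RNA-seq libraries of the study enter 1 comparison here, 8 from cells given GSK126 and 8 from cells given DMSO, and none was left out. GSK126 is a small molecule that blocks the catalytic activity of EZH2. The cells were Kelly and LAN-1, established neuroblastoma lines with amplification of the MYCN oncogene, and each was grown with 2 µM GSK126 or with the solvent DMSO for 2 or 5 days. Duplicate libraries were made for each line, treatment and day, so that the groups were Kelly with GSK126 at day 2 and day 5, LAN-1 with GSK126 at day 2 and day 5, and the 4 matching DMSO groups. Each line and day is a stratum with its own DMSO libraries. The GSK126 effect reported below is the mean of the 4 log2 differences between GSK126 and DMSO libraries, 1 per stratum, so that line, day and their combination cancel out of it.

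EZH2 is the catalytic subunit of Polycomb repressive complex 2 (PRC2), which methylates lysine 27 of histone H3 and so keeps developmental and lineage genes silent. An inhibitor of the enzyme leaves the protein in place but lets the methylation decline as cells divide and histones turn over, so changes in RNA can follow over days. In MYCN-amplified neuroblastoma, a tumour of sympathetic nerve precursors, EZH2 has been studied as a block to neuronal differentiation.

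The libraries held 912095 to 1666190 counts each (median 1394475.5), a shallow depth at which low-expressed genes rest on a few reads. Of 25728 gene symbols, 11863 passed the filter on low counts and were tested. The 11 markers of adrenergic neuroblastoma checked were all among the tested genes. MYCN stood at 1901 to 2874 CPM (counts per 1000000 after scaling) in Kelly and 1646 to 1943 CPM in LAN-1, while DBH and TH, enzymes of noradrenaline synthesis, were below 5 CPM in every LAN-1 library. The first principal component held 81.94% of the variance and separated the lines, and the second held 3.651%. Duplicates of LAN-1 with GSK126 at day 5 and of Kelly with DMSO at day 2 differed most, with 2.21 and 1.95 times the counting variance, against 1.12 to 1.33 times in the other 6 groups. The libraries of these pairs that stand apart are LAN-1 GSK126 day 5 replicate 2 and Kelly DMSO day 2 replicate 1. The first had the smallest total, 912095 counts, and stood at -33.92 on the third principal component, against -3.685 for its replicate 1. The labels do not say whether duplicates were separate cultures, so p-values measure the spread between libraries, which may be technical.

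In the averaged effect, 768 of 11863 genes (6.47%) passed an adjusted p of 0.05 by edgeR's quasi-likelihood test with Benjamini-Hochberg adjustment. Of these, 512 (4.32% of genes tested) were higher with GSK126 and 256 (2.16%) were lower. The split depended on 1 library and on the model: without LAN-1 GSK126 day 5 replicate 1 it was 527 higher and 433 lower (54.9% higher, against 66.7% with all libraries), with an offset for GC content 595 and 413, and in an additive model 378 and 161. Without that replicate 1, its group holds only replicate 2, a library that stands apart. Among all 768, 565 (4.76% of genes tested) moved in 1 direction in all 4 strata, 351 higher (2.96%) and 214 lower (1.80%). These 565 are 73.6% of the genes called, and 20% of all tested genes had the same sign in the 4 strata, called or not. The call and the signs rest on the same 4 differences. A larger share among called genes was thus built in, and these shares are a description. The share was 68.6% of the 512 higher genes and 83.6% of the 256 lower genes. Both GSK126 libraries lay on 1 side of both DMSO libraries in all 4 strata for 199 genes (1.68%), 114 of them higher (0.961%) and 85 lower (0.717%), and 156 of the 199 were called. In such bulk samples fewer cells of a type and less RNA per cell cannot be told apart. DESeq2 with the same contrast called 289 genes, and the mean over day 2 alone called 29 genes against 756 for day 5 alone.

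No gene was called in every single stratum. Taken 1 stratum at a time, the day 2 contrasts called 21 genes in Kelly (0.177%; 20 higher, 0.169%, and 1 lower, 0.00843%) and 18 in LAN-1 (0.152%; 18 higher and 0 lower, against 404 and 335 at an unadjusted p under 0.05). The day 5 contrasts called 581 in Kelly (4.9%; 391 higher, 3.3%, and 190 lower, 1.6%) and 434 in LAN-1 (3.66%; 291 higher, 2.45%, and 143 lower, 1.21%). Of the 768 genes, 296 were called in none of them, 378 in 1, 86 in 2 and 8 in 3. Among the 565 of 1 direction, 259 (137 higher and 122 lower) were called only when the 4 strata were averaged. Correlations of the log2 fold changes between strata, over 7675 genes, were 0.429 between the days of Kelly, 0.149 between the days of LAN-1, and 0.105 to 0.209 between lines. No library is shared between strata, while all genes of a stratum share its libraries and their depth.

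Called rises and falls differed in size, in level and in GC content. With more than 3 counts in every group, 285 rising genes had a median averaged log2 fold change of 0.47 and 214 falling genes one of -0.21. Of these, 25 rose by over 1 on the log2 scale and 0 fell by that much. For rises the median in Kelly was 0.31 at day 2 and 0.52 at day 5, and in LAN-1 0.28 and 0.55. For falls it was -0.18 and -0.27 in Kelly, and -0.12 and -0.29 in LAN-1. Another 66 rising genes, and no falling gene, had 3 or fewer counts in some group, and their fitted fold changes depend on the prior count. The median DMSO level was 27.7 CPM for the 351 rising genes, 240.0 CPM for the 214 falling genes and 37.9 CPM over all tested genes. Small changes pass the test more easily at a high level, so the median sizes of called rises and falls are not on equal terms. The genes' median GC content was 52.3%, 42.8% and 47.6% in the same order. Duplicates also differed along GC content. The difference within a pair correlated with it at -0.459 in LAN-1 with GSK126 at day 5 and -0.406 in Kelly with DMSO at day 2. In the other groups this correlation was between -0.191 and 0.305. How far such library differences enter the GC contrast was not tested. After a per-library correction for GC content, 342 of the 351 and 199 of the 214 were still called.

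EZH2 itself fell. In Kelly its level was 212 and 229.7 CPM with GSK126 against 263 and 225 CPM with DMSO at day 2, and 182 and 179 CPM against 233 and 207 CPM at day 5. In LAN-1 the level was 114 and 111 CPM with GSK126 against 136 and 149 CPM with DMSO at day 2, and 109 and 100.3 CPM against 127 and 135 CPM at day 5. The GSK126 libraries were below both DMSO libraries in 3 strata and overlapped them in Kelly at day 2. The averaged log2 fold change was -0.27 ± 0.06 (SE, adjusted p = 0.00155), it was called in no single stratum, and it was called in all 16 fits that left out 1 library. EZH2 lies on the minus strand of chromosome 7 at 148504349 to 148581413 in GRCh37, the build of the authors' alignment, and is protein-coding.

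The 250 bases upstream of the EZH2 start in the RefSeq table, at chr7:148581384-148581633 on the minus strand of GRCh37 by exact match, are shown because EZH2 is the drug's target and its own RNA fell. The sequence is from RefSeq (table of build GRCh38.p14), whose start lies inside the GRCh37 gene span given above, so the window's 3′ end overlaps that span. Capitals mark CCAAT and its reverse complement ATTGG, present 4 times.
EZH2: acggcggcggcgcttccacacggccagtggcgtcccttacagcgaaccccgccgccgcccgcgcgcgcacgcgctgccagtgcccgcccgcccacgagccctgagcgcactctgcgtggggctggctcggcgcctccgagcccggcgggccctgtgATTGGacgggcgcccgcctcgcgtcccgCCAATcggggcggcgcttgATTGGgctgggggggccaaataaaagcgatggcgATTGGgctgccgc

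Of the 11 PRC2 subunits tested, 3 fell (EZH2, RBBP7 and PHF19), none rose (6 lower and 0 higher at an unadjusted p under 0.05, 1 lower by DESeq2), and the median log2 fold change was -0.13 against 0.003 over all tested genes. PHF19, an accessory subunit that recruits the complex, fell by 0.32 on the log2 scale (SE 0.09, adjusted p = 0.0159), and RBBP7, a histone-binding subunit, fell by 0.22 (SE 0.06, adjusted p = 0.00853). PHF19 stood at 41.0 and 43.5 CPM with GSK126 against 59.0 and 63.2 CPM with DMSO in Kelly at day 5, with no overlap, while in LAN-1 at day 5 the groups overlapped at 48.3 and 52.9 CPM against 62.0 and 49.6 CPM. The scaffold SUZ12 had a log2 fold change of -0.13 (adjusted p = 0.296), the H3K27me3 reader EED 0.19 (adjusted p = 0.472) and the alternative enzyme EZH1 -0.26 (adjusted p = 0.212). Among 19 PRC1 subunits, some of which bind the mark, only PCGF1 was called, at -0.30 (adjusted p = 0.0319, called in 7 of 16 fits that left out 1 library). Of 23 modifiers that oppose Polycomb, 2 rose and 1 fell. These are too few to set against the shares over all tested genes, 4.32% higher and 2.16% lower. At an unadjusted p under 0.05, 4 of these modifiers were higher and 4 lower, and DESeq2 called 0 in either direction. KDM6B, an H3K27 demethylase, rose by 0.24 (adjusted p = 0.0123; 0.111 by DESeq2), and SMARCC1, a subunit of the SWI/SNF remodeller, fell by 0.14 (adjusted p = 0.0324). CREBBP, which acetylates the same lysine, rose by 0.18 (adjusted p = 0.0097; 0.0513 by DESeq2) but was at 375 and 389.9 CPM with GSK126 against 437 and 418 CPM with DMSO in LAN-1 at day 2, where it was lower without overlap.

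**Figure D1:**
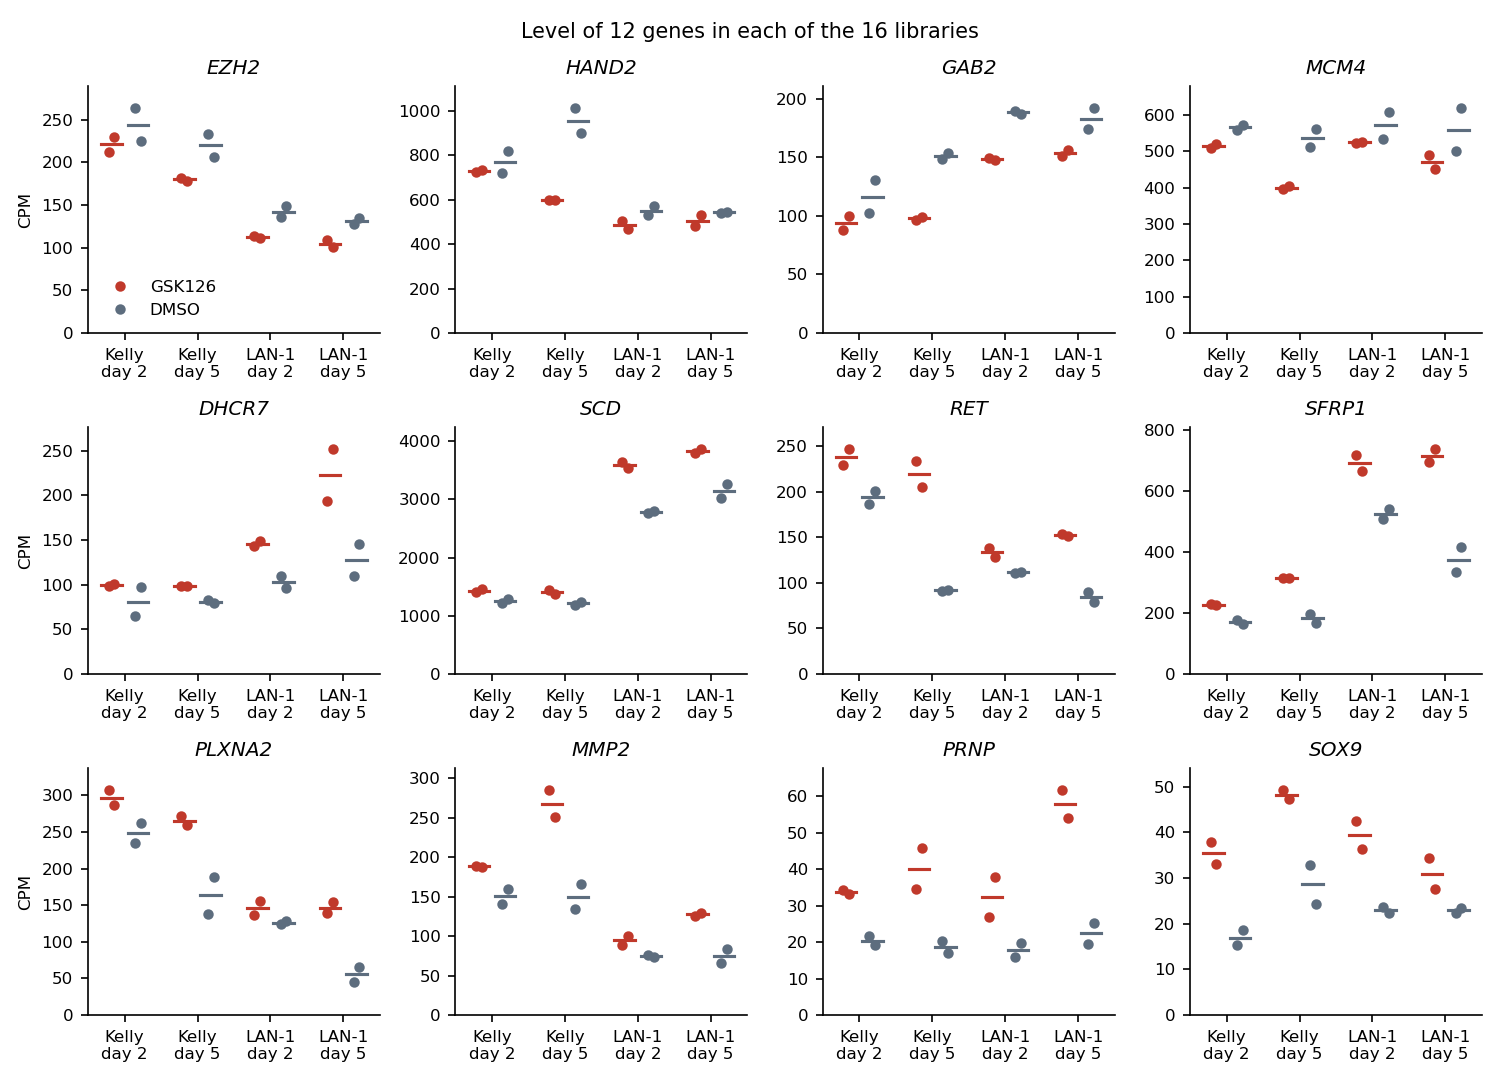
Level of 12 genes in CPM (vertical axis from 0) in each library, with GSK126 in red and DMSO in grey for each line and day on the horizontal axis; points are libraries and lines their means. EZH2, HAND2, GAB2 and MCM4 lie lower with GSK126, and the other 8 genes lie higher, by more in Kelly and LAN-1 at day 5 for RET and PLXNA2.

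A set of 180 genes of 1 direction, 117 higher and 63 lower, was called in all 16 fits that left out 1 library and under each other scaling, tool and model listed in the processing section apart from the filters and the subsets of strata. This selection was made with the values in view. The 15 genes with the largest changes on each side, among those of the 164 with more than 3 counts in every group that are reported here, are drawn in the map of changes by stratum. PDGFRA, the receptor for platelet-derived growth factor of mesenchymal cells, led the rises at 1.84 ± 0.20 (adjusted p = 1.07e-12). In Kelly it was at 7.35 and 11.5 CPM with GSK126 against 0.898 and 2.47 CPM with DMSO at day 2, and at 28.7 and 24.4 CPM against 5.98 and 0.608 CPM at day 5. In LAN-1 it was at 50.6 and 48.0 CPM with GSK126 against 21.8 and 25.1 CPM with DMSO at day 2, and at 53.9 and 39.7 CPM against 28.5 and 21.8 CPM at day 5. No GSK126 library overlapped its DMSO pair, and the change was larger in Kelly than in LAN-1 (adjusted p of the difference = 0.0156).

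STX3, a syntaxin of membrane fusion, changed by a similar factor in each stratum. It was 2.24-fold higher at day 2 and 2.53-fold higher at day 5 in Kelly, and 1.94-fold and 2.28-fold higher in LAN-1, with no overlap between libraries. Its GSK126 libraries held 16.2 to 32.1 CPM and its DMSO libraries 7.56 to 12.7 CPM, and the averaged log2 fold change was 1.16 ± 0.17 (adjusted p = 7.54e-08). PRNP, the prion protein, a glycoprotein of neuronal membranes, rose by 1.03 ± 0.12 (adjusted p = 1.03e-10). Its levels were 34.3 and 33.2 CPM with GSK126 against 21.6 and 19.2 CPM with DMSO in Kelly at day 2, and 61.6 and 54.0 CPM against 19.5 and 25.2 CPM in LAN-1 at day 5. Its groups did not overlap in any stratum. LIPG, endothelial lipase, was 1.58-fold to 3.00-fold higher over the strata, and ETNK2, an ethanolamine kinase, 1.75-fold to 3.11-fold higher, likewise without overlap.

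WASF3, an actin regulator, rose by 1.46 ± 0.16 (adjusted p = 3.97e-12), most in Kelly at day 5, where it stood at 46.7 and 33.6 CPM with GSK126 against 2.24 and 4.86 CPM with DMSO. LGR5, a receptor for R-spondins in Wnt signalling, rose by 1.29 ± 0.19 (adjusted p = 9.97e-08), although its libraries overlapped in Kelly at day 2 at 11.0 and 15.9 CPM with GSK126 against 13.5 and 7.42 CPM with DMSO. SFRP1, a secreted Wnt inhibitor, rose by 0.64 ± 0.05 (adjusted p = 8.11e-20). In Kelly its level was 230.2 and 226 CPM with GSK126 against 177 and 165 CPM with DMSO at day 2, and 314 and 314 CPM against 196 and 169 CPM at day 5. In LAN-1 SFRP1 was at 721 and 667 CPM with GSK126 against 508 and 543 CPM with DMSO at day 2, and 695 and 737 CPM against 335 and 417 CPM at day 5. All 8 GSK126 libraries lay above the DMSO libraries of their stratum.

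**Figure D2:**
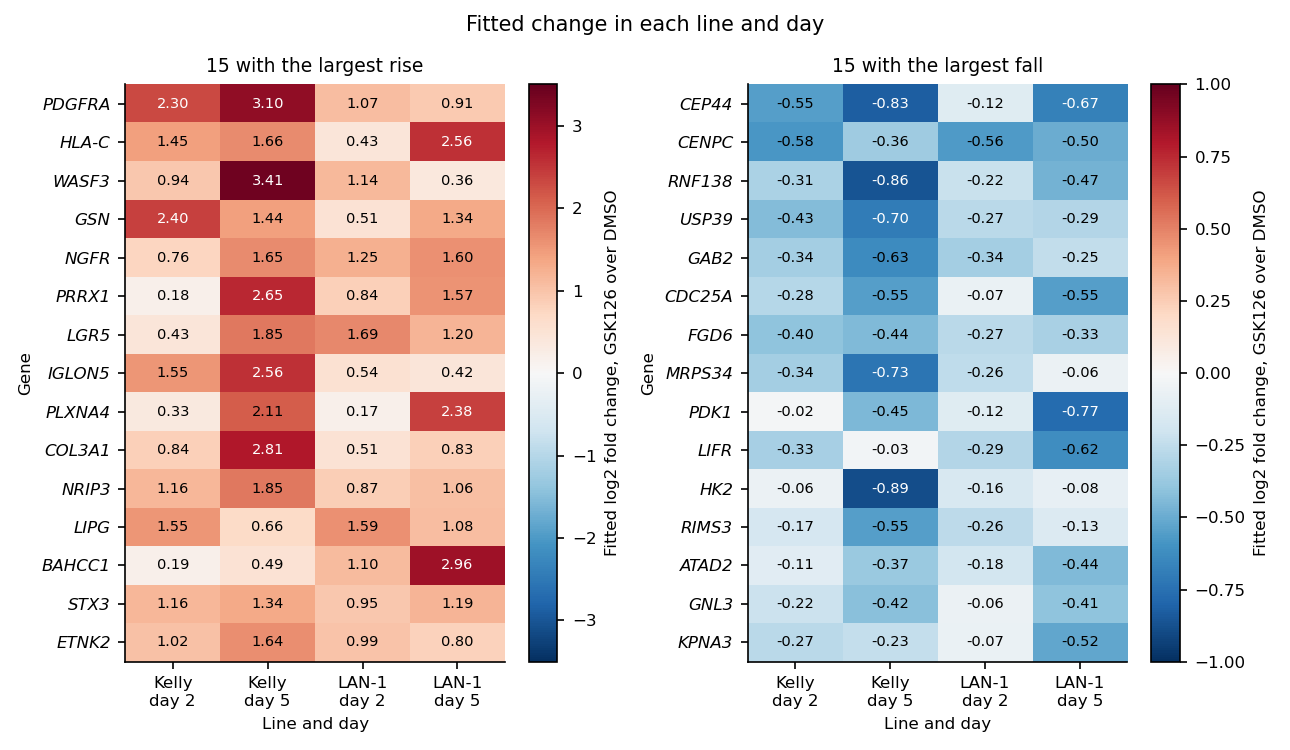
Fitted log2 fold change of GSK126 over DMSO in each line and day (columns) for the 15 genes with the largest rise (left) and the 15 with the largest fall (right) among the genes reported here that were called in every fit and had more than 3 counts in every group; numbers are the fitted values and each panel has its own colour scale. PDGFRA ranges from 0.91 to 3.10 and CENPC from -0.58 to -0.36, and every value in a panel has 1 sign because the genes were chosen for it.

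Among genes with no overlap in any stratum, the 15 largest fitted rises were mostly of genes with 3 or fewer counts in some group, and 1 of the 15, PDGFRA, had more than 3 counts in every group. COL1A1, the main chain of type I collagen, was at 45.9 and 38.3 CPM with GSK126 against 9.88 and 13.0 CPM with DMSO in Kelly at day 2, and at 125 and 116 CPM against 29.9 and 20.1 CPM at day 5. In LAN-1 it was at 4.08 and 2.32 CPM against 1.28 and 2.04 CPM at day 2, and at day 5 at 2.80 and 5.51 CPM against no reads, at least 3.37-fold higher (floor of 3 counts over the DMSO group). CRABP2, a retinoic acid carrier, was 1.67-fold higher in Kelly at day 2, 3.52-fold in Kelly at day 5 and 1.85-fold in LAN-1 at day 2, with 17 counts against 1 in LAN-1 at day 5 (ratio 19.1, 95% interval 2.99 to 798, counting error only). MB21D2 and SOX13 passed with 31 or fewer counts in each group, at adjusted p of 0.000222 and 0.000118. COL2A1, a cartilage collagen, was at 25.4 and 25.2 CPM with GSK126 against 2.99 and 1.82 CPM with DMSO in Kelly at day 5, and at 307 and 333 CPM against 206 and 203 CPM in LAN-1 at day 5.

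Falls were smaller. CENPC, a protein of the inner centromere, was at 31.8 and 31.9 CPM with GSK126 against 51.2 and 45.1 CPM with DMSO in Kelly at day 2, and at 34.3 and 27.9 CPM against 46.7 and 44.8 CPM in LAN-1 at day 2. Its averaged log2 fold change was -0.50 ± 0.11 (adjusted p = 0.000733), and although called in no single stratum it was lower without overlap in all 4. GAB2, an adaptor of receptor tyrosine kinases, fell by 0.39 (SE 0.06, adjusted p = 2.42e-06). It was at 96.7 and 99.3 CPM with GSK126 against 149 and 154 CPM with DMSO in Kelly at day 5, and at 149 and 148 CPM against 189 and 187 CPM in LAN-1 at day 2. CEP44, a centrosomal protein, fell by 0.54 (SE 0.06, adjusted p = 8.09e-14) but overlapped in LAN-1 at day 2, at 341 and 299 CPM with GSK126 against 314 and 383 CPM with DMSO. NUP155, a nuclear pore protein, and KNTC1, a kinetochore protein, fell by 0.26 (adjusted p = 0.000334) and 0.27 (adjusted p = 0.000957) and were called in no single stratum. USP39, a splicing factor, and GMNN, which restrains replication licensing, fell by 0.42 (adjusted p = 0.000137) and 0.34 (adjusted p = 0.00478).

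Genes of sterol and fatty acid synthesis were among those that rose. Cells make cholesterol from acetyl-CoA through mevalonate and squalene under control of the SREBP factors. Of 30 tested genes on this list, 17 rose and none fell, against 4.32% higher and 2.16% lower over all tested genes. Of the 17, 14 had 1 direction in all strata. At an unadjusted p under 0.05, 25 were higher and 0 lower, and DESeq2 called 10 higher and 0 lower. The list's median log2 fold change was 0.23 against 0.003 over all tested genes. Averaged changes were positive for all 29 members with more than 3 counts in every group, against 48.5% of all 10903 such genes. INSIG1, which retains SREBP in the endoplasmic reticulum, was near 0 reads in some groups and not called (adjusted p = 0.38). DHCR7, which makes the last double-bond reduction to cholesterol, rose by 0.46 ± 0.07 (adjusted p = 9.32e-07). In Kelly it was at 98.6 and 100.8 CPM with GSK126 against 64.7 and 97.1 CPM with DMSO at day 2, and at 98.4 and 98.5 CPM against 83.0 and 79.0 CPM at day 5. The LAN-1 values were 143 and 148 CPM with GSK126 against 110.1 and 95.8 CPM with DMSO at day 2, and 194 and 251 CPM against 110.0 and 145 CPM at day 5. The groups did not overlap in any stratum.

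LSS, which closes squalene epoxide into lanosterol, rose by 0.34 ± 0.05 (adjusted p = 1.49e-06) and was at 551 and 658 CPM with GSK126 against 382 and 424 CPM with DMSO in LAN-1 at day 5. HMGCS1, which makes HMG-CoA, rose by 0.27 ± 0.05 (adjusted p = 2.66e-05), most in LAN-1 at day 2, at 1079 and 1053 CPM against 708 and 742 CPM. SCD, which desaturates stearate, had 3444 or more counts in every group and rose by 0.26 ± 0.04 (adjusted p = 1.71e-07). It was at 1411 and 1458 CPM with GSK126 against 1227 and 1285 CPM with DMSO in Kelly at day 2, at 1440 and 1377 CPM against 1191 and 1243 CPM at day 5, and between 3536 and 3859 CPM against 2768 to 3270 CPM in LAN-1. STARD4 (a sterol carrier), MSMO1 (a sterol demethylase) and FDFT1 (squalene synthase) rose by 0.36, 0.35 and 0.23 (adjusted p = 4.87e-05, 0.00111 and 0.000663). FADS1 and FADS2, fatty acid desaturases, rose by 0.28 and 0.27 (adjusted p = 4.81e-05 and 1.29e-05); their annotated spans overlap on opposite strands, so reads may be shared between them. SREBF2, the SREBP factor of sterol genes, rose by 0.17 (adjusted p = 0.0156, called in 10 of 16 fits that left out 1 library). SQLE, squalene epoxidase, was not called, at 0.10 (adjusted p = 0.31).

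Windows upstream of the RefSeq starts of DHCR7 and LSS are shown as examples of the sterol genes that rose. They lie at chr11:71159440-71159689 and chr21:47648689-47648938, both on the minus strand of GRCh37 by exact match, with sequence from RefSeq (GRCh38.p14); capitals mark CCAAT or ATTGG, present 2 times in DHCR7 and 1 time in LSS.
DHCR7: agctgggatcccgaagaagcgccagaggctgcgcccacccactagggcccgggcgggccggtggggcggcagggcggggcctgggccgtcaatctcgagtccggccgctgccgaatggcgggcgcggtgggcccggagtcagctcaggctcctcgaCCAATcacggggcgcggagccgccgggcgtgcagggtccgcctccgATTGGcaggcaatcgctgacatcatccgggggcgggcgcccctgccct
LSS: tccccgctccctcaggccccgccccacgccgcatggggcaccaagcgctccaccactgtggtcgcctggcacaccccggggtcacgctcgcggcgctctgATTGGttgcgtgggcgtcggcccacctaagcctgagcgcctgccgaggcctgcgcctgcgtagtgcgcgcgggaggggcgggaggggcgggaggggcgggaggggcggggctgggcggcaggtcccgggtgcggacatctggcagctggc

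The 250 bases upstream of the RefSeq start were available for 268 of the 351 rising genes, 177 of the 214 falling genes, 12 of the 17 sterol genes and 9548 of all tested genes. Each motif was searched on both strands, without regard to overlap with the others. CCAAT was present in 31.3% of rising genes, 48.0% of falling genes, 75.0% of the sterol genes (9 of 12) and 35.7% of all tested genes. The TATA box TATAAA was present in 5.22%, 11.9%, 8.33% and 4.88% in the same order, and the E-box CACGTG, the site of MYC and MAX, in 6.34%, 7.34%, 0% and 9.33%. An E2F-like motif, TTTNGCGC, was in 1.49% of rising and 5.65% of falling windows against 2.57% of all tested, and the GC box GGGCGG in 68.3% and 71.2% against 68.6%. A sterol element, TCACNCCAC, was in 1.49% and 0.565% against 0.796%, the AP-1 site TGANTCA in 2.24% and 4.52% against 3.29%, and the homeobox core TAATTA in 2.61% and 2.26% against 1.82%. Among the 12 sterol windows the sterol element was in 1 (8.33%) and the GC box in 91.7%. The E2F-like, AP-1 and homeobox motifs were in 0% of them. The median GC content of the windows was 68.0% for rising genes, 63.2% for falling genes and 65.6% for all tested genes. These shares describe the windows and were not tested.

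**Figure D3:**
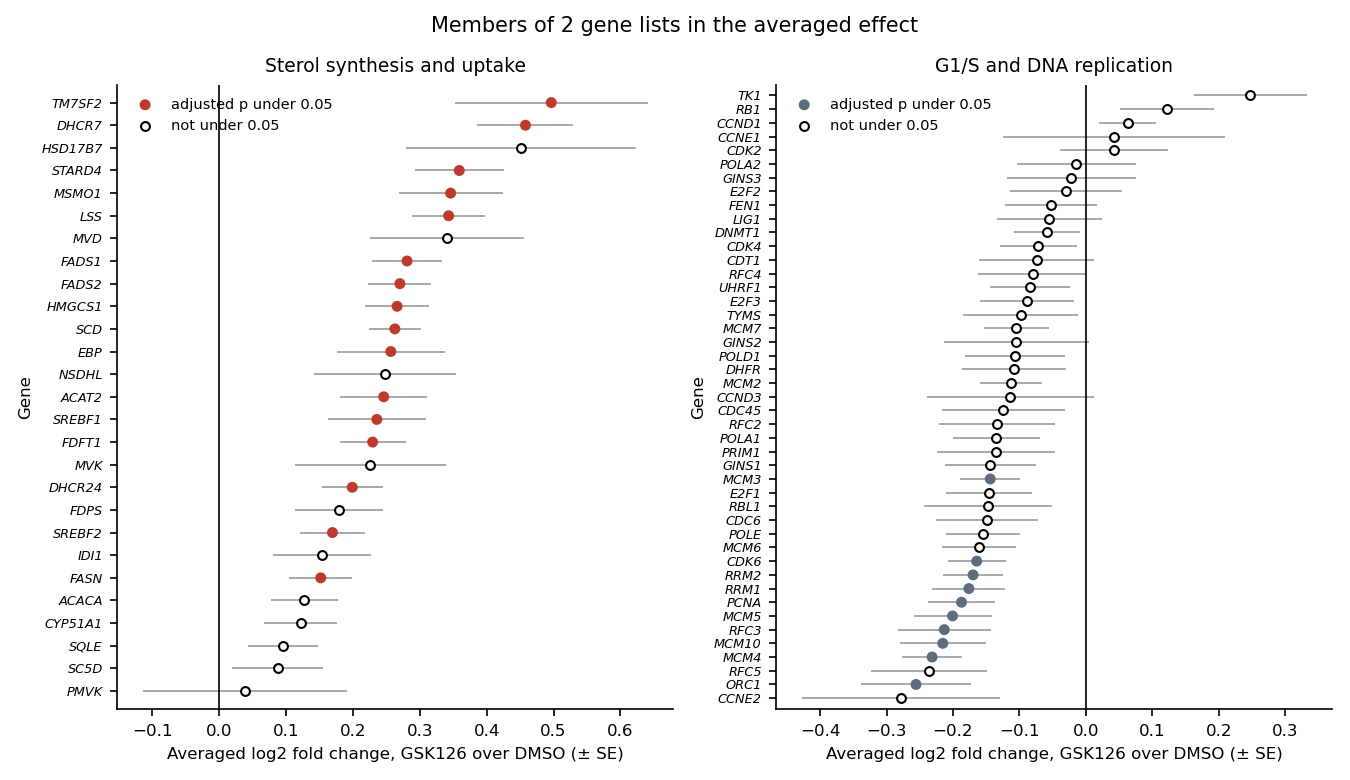
Averaged log2 fold change of GSK126 over DMSO (horizontal axis, bars ± SE) for members of the sterol list (left) and of the G1/S and DNA replication list (right) with more than 3 counts in every group; filled points passed an adjusted p of 0.05. The 27 sterol genes drawn have positive values and 40 of 45 replication genes negative ones.

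Some genes that drive the cell cycle fell, by little. For the lists of this paragraph, the shares over all tested genes were 4.32% higher and 2.16% lower. Of 46 tested genes of G1/S and DNA replication, 10 fell and none rose (18 lower and 1 higher at an unadjusted p under 0.05, 3 lower by DESeq2; median -0.11), and 40 of the 45 with more than 3 counts in every group had negative values. MCM4, a subunit of the replicative helicase, fell by 0.23 (SE 0.05, adjusted p = 0.00014). It was at 510.0 and 521 CPM with GSK126 against 560 and 571 CPM with DMSO in Kelly at day 2, at 395 and 403 CPM against 513 and 562 CPM in Kelly at day 5, and at 489 and 451 CPM against 499 and 618 CPM in LAN-1 at day 5. The others that fell were CDK6, ORC1, MCM3, MCM5, MCM10, PCNA, RFC3, RRM1 and RRM2, by 0.14 to 0.26 on the log2 scale, and 2 of these, MCM5 and RRM2, did not have 1 sign in all strata. CDC25A, a phosphatase that starts S phase and is not on the list, fell by 0.36 (adjusted p = 6.94e-05). Of 36 mitosis genes, PLK1, TPX2, CCNA2 and NUSAP1 fell and none rose (14 lower and 0 higher at an unadjusted p under 0.05, 2 lower by DESeq2; median -0.10). PLK1, a mitotic kinase, was at 116 and 121 CPM with GSK126 against 146 and 175 CPM with DMSO in Kelly at day 5, but at 283 and 299 CPM against 293 and 300.0 CPM in LAN-1 at day 5, where the groups overlapped. Among 23 replication-dependent histone genes, near-identical copies whose reads could be split, 3 fell and none rose (9 lower at an unadjusted p under 0.05, 1 by DESeq2). CDKN1A was the 1 called gene of 6 CDK inhibitors.

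Of 42 genes on a list of MYC targets and ribosome biogenesis genes, 8 fell and none rose (21 lower and 0 higher at an unadjusted p under 0.05, 6 lower by DESeq2; median -0.12), and 38 of the 41 with more than 3 counts in every group were negative. GNL3, nucleostemin, fell by 0.28 (SE 0.06, adjusted p = 0.000364), and NOP58 and NOLC1, which act in snoRNA particles, by 0.24 (adjusted p = 0.00238) and 0.18 (adjusted p = 0.00523). NCL, nucleolin, with 4495 or more counts in every group, fell by 0.14 (SE 0.04, adjusted p = 0.0112), and was at 1751 and 1802 CPM with GSK126 against 2087 and 2069 CPM with DMSO in Kelly at day 5. MYCN did not pass the test, at -0.10 ± 0.04 (adjusted p = 0.122). It was at 1901 and 1929 CPM with GSK126 against 2399 and 2616 CPM with DMSO in Kelly at day 5, and at 1775 and 1943 CPM against 1695 and 1670 CPM in LAN-1 at day 5, and its effect differed between lines (adjusted p = 0.0123). With the GC correction MYCN was called (adjusted p = 0.000862). Among 65 ribosomal protein genes 2 rose, RPS12 and RPS19, and none fell (10 higher at an unadjusted p under 0.05, 0 by DESeq2, median 0.04). The 2 rises are a share near the 4.32% over all tested genes. In glycolysis, LDHA, HK2 and PDK1 fell, by 0.21, 0.30 and 0.34 (adjusted p = 0.000339, 0.000171 and 0.000286), and PFKP rose by 0.48 (adjusted p = 0.00471) among 32 tested. That 1 rise is a share near the 4.32% over all tested genes. LDHA is also among the 8 that fell on the MYC list. PFKP, a phosphofructokinase, was higher in LAN-1, at 28.7 and 33.1 CPM with GSK126 against 11.1 and 16.0 CPM with DMSO at day 5, but lower in Kelly at day 5, at 70.5 and 62.6 CPM against 77.0 and 91.2 CPM. HK2, hexokinase 2, fell most in Kelly at day 5, at 78.7 and 78.7 CPM with GSK126 against 143 and 148 CPM with DMSO. Of 29 genes of amino acid stress, DDIT4 and TRIB3 rose and PSAT1 and GARS fell (DESeq2 called 0 higher and 1 lower). Over all tested genes the shares were 4.32% higher and 2.16% lower.

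Some factors of the sympathetic lineage were among the genes that fell. Of 26 adrenergic genes, 4 fell in the average and in all 4 strata, HAND2 and SOX11 among them, and TBX2 and SIX3 rose, neither of them with 1 sign throughout. Over all tested genes 2.16% were lower and 4.32% higher. At an unadjusted p under 0.05, 5 were lower and 2 higher, and DESeq2 called 4 lower and 1 higher. The list's median log2 fold change was -0.005 against 0.003 over all tested genes. Of 22 members with more than 3 counts in every group, 13 were negative and 9 positive. HAND2, a factor of sympathetic neuron development, fell by 0.26 (SE 0.04, adjusted p = 5.57e-06). In Kelly it was at 723 and 735 CPM with GSK126 against 719.6 and 819 CPM with DMSO at day 2, and at day 5 it averaged 600.2 ± 0.228 CPM against 955 ± 77.8 CPM (SD, n = 2 each). In LAN-1 HAND2 was at 503 and 466 CPM with GSK126 against 530.2 and 569 CPM with DMSO at day 2, and at 481 and 529 CPM against 539.7 and 544 CPM at day 5. The groups overlapped in Kelly at day 2 and in no other stratum. SOX11, a factor of immature neurons, fell by 0.15 (adjusted p = 0.0176). DBH at -0.01 (adjusted p = 1) and CHGA, chromogranin A, at -0.03 (adjusted p = 0.75) were not called. DBH ranged from 311.6 to 827.3 CPM in Kelly but from 0.696 to 4.90 CPM in LAN-1, so its average does not describe Kelly alone. Summed CPM of the 11 adrenergic markers, MYCN and CHGA among them, was 6283 to 8306 with GSK126 against 8442 to 9271 with DMSO in Kelly. In LAN-1 the sum was 3693 to 4311 against 3820 to 4029, with overlap.

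Some genes of other developmental programmes rose. Of 58 developmental transcription factors classically bound by PRC2, 25 passed the filter. FOXC1, HAND1, MSX2, SOX9 and TBX20 were called higher, with a positive sign in all 4 strata, and none was called lower. All tested genes had shares of 4.32% higher and 2.16% lower. In some strata the change was small: HAND1 was 1.015-fold and MSX2 1.205-fold in Kelly at day 2, and TBX20 1.021-fold in LAN-1 at day 2, each with overlap. The list's median log2 fold change was 0.43, or 0.41 with genes at 3 or fewer counts set to their bound. Genes that passed only through the group where they are high had to differ, so these figures are a description. SOX9, a factor of neural crest and cartilage, rose by 0.76 ± 0.12 (adjusted p = 1.17e-06). It was at 38.0 and 33.2 CPM with GSK126 against 15.3 and 18.5 CPM with DMSO in Kelly at day 2, at 49.2 and 47.4 CPM against 32.9 and 24.3 CPM at day 5, at 42.4 and 36.4 CPM against 23.7 and 22.4 CPM in LAN-1 at day 2, and at 34.3 and 27.6 CPM against 22.3 and 23.5 CPM at day 5. No library overlapped across treatments within a stratum. FOXC1, a mesodermal factor, rose by 0.77 ± 0.11 (adjusted p = 1.71e-07) with overlap in Kelly at day 2. Of 11 HOX genes tested of 39, edgeR called none in either direction (1 higher at an unadjusted p under 0.05, 0 by DESeq2), and 8 of the 11 had 3 or fewer counts in some group.

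On the list of 5 genes reported in earlier work as repressed by EZH2 in neuroblastoma, 4 rose and none fell, and DESeq2 called 2. This list, like the others, was chosen with earlier results of these data known, so its counts are a description. They stand beside shares of 4.32% higher and 2.16% lower over all tested genes. Of the 4, NGFR and CDKN1A had 1 sign in all strata, whereas CASZ1 was 0.967-fold in Kelly at day 5 and CLU 0.952-fold in Kelly at day 2. NGFR, the low-affinity neurotrophin receptor, rose by 1.31 ± 0.26 (adjusted p = 0.000217). It was at 4.90 and 8.93 CPM with GSK126 against 1.80 and 5.57 CPM with DMSO in Kelly at day 2, where the groups overlapped, and at 18.9 and 15.3 CPM against 6.73 and 4.26 CPM at day 5. LAN-1 had 8.16 and 7.74 CPM with GSK126 against 3.20 and 3.396 CPM with DMSO at day 2, and 8.39 and 11.0 CPM against 3.48 and 2.52 CPM at day 5. CASZ1, a zinc finger factor, and CLU, clusterin, rose by 0.34 (adjusted p = 0.0181) and 0.23 (adjusted p = 0.0398) but were called in 8 and 4 of the 16 fits that left out 1 library. RUNX3 had no reads in LAN-1, so its averaged effect is undefined. CDKN1A, the p21 inhibitor of cyclin-dependent kinases, had 5 counts against 0 in LAN-1 at day 2 (at least 2.01-fold higher) and 21 against 2 at day 5 (ratio 11.8, 95% interval 2.88 to 104), whereas it was 1.20-fold and 1.26-fold higher in Kelly at day 2 and day 5. The average (adjusted p = 0.000339) thus combines a low-count gene in LAN-1 with an expressed one in Kelly, where it was at 100.8 and 83.3 CPM with GSK126 against 75.5 and 71.1 CPM with DMSO at day 5.

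Some cell surface receptors and axon guidance genes rose and none on these lists fell. Shares over all tested genes were 4.32% higher and 2.16% lower. Of 24 growth factor receptor kinases 9 rose (median 0.37, or 0.29 with genes at 3 or fewer counts set to their bound), and of 36 semaphorin, ephrin and netrin genes 10 rose (median 0.31, or 0.23). DESeq2 called 6 higher and 0 lower on each of these lists, and at an unadjusted p under 0.05 the receptors had 12 higher and 0 lower, the guidance genes 13 higher and 2 lower. RET, the receptor for GDNF-family ligands in sympathetic neurons, rose by 0.66 ± 0.06 (adjusted p = 2.4e-15) and the anaplastic lymphoma kinase ALK by 0.60 ± 0.12 (adjusted p = 0.000128). In Kelly RET was at 229.6 and 246 CPM with GSK126 against 187 and 201 CPM with DMSO at day 2, and at 234 and 205 CPM against 91.2 and 92.4 CPM at day 5. In LAN-1 RET was at 139 and 128 CPM with GSK126 against 111 and 112 CPM with DMSO at day 2, and at 154 and 151 CPM against 89.8 and 79.0 CPM at day 5. PLXNA2 and PLXNA4, plexins that transduce semaphorin signals, rose by 0.64 ± 0.06 (adjusted p = 6.36e-14) and 1.25 ± 0.11 (adjusted p = 7.74e-18). PLXNA4 was at 232 and 229.9 CPM with GSK126 against 44.8 and 60.8 CPM with DMSO in Kelly at day 5, and at 44.1 and 63.9 CPM against 7.66 and 12.6 CPM in LAN-1 at day 5, but overlapped in LAN-1 at day 2 at 34.3 and 34.8 CPM against 39.1 and 21.7 CPM. EFNB3, an ephrin, rose by 0.70 ± 0.11 (adjusted p = 1.64e-06) and SEMA6A by 0.40 ± 0.07 (adjusted p = 4.19e-06), both without overlap in any stratum.

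Some genes of the matrix and mesenchymal list and some neuronal genes rose. Shares over all tested genes were 4.32% higher and 2.16% lower. Of 21 genes of the mesenchymal and matrix list 8 rose and none fell (9 higher and 0 lower at an unadjusted p under 0.05, 8 higher by DESeq2; median 0.33). COL6A1, a chain of type VI collagen, rose by 0.69 ± 0.07 (adjusted p = 8.11e-13). VIM, the intermediate filament vimentin, rose by 0.46 ± 0.06 (adjusted p = 4.19e-10), and PRRX1, a mesenchymal factor, by 1.31 ± 0.26 (adjusted p = 0.000128). COL6A1 was only 1.06-fold higher in Kelly at day 5, with overlap, against 1.891-fold and 2.334-fold in LAN-1 at day 2 and day 5. PRRX1 was 1.131-fold in Kelly at day 2, on 16 against 12 counts and with overlap. VIM was at 183 and 186 CPM with GSK126 against 105 and 91.8 CPM with DMSO in Kelly at day 5, and at 392.4 and 399 CPM against 317 and 366 CPM in LAN-1 at day 5. MMP2, a matrix metalloproteinase outside the list, rose by 0.57 (adjusted p = 5.43e-11) without overlap in any stratum. Of 47 neuronal genes 7 rose and 2 fell (15 higher and 3 lower at an unadjusted p under 0.05, 6 higher and 0 lower by DESeq2, median 0.12). The 2 falls are too few to set against the 2.16% over all tested genes. DCX, doublecortin, a microtubule protein of young neurons, rose by 0.40 ± 0.08 (adjusted p = 0.000312), STMN2, a growth cone protein, by 0.68 ± 0.15 (adjusted p = 0.000881), and NRXN2, a synaptic adhesion protein, by 0.42 ± 0.09 (adjusted p = 0.000762). TUBB3, neuronal beta-tubulin, fell by 0.20 (adjusted p = 0.00852) and ELAVL3 by 0.19 (adjusted p = 0.0431), the second without 1 sign in all strata and called in 5 of the 16 fits that left out 1 library.

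**Figure D4:**
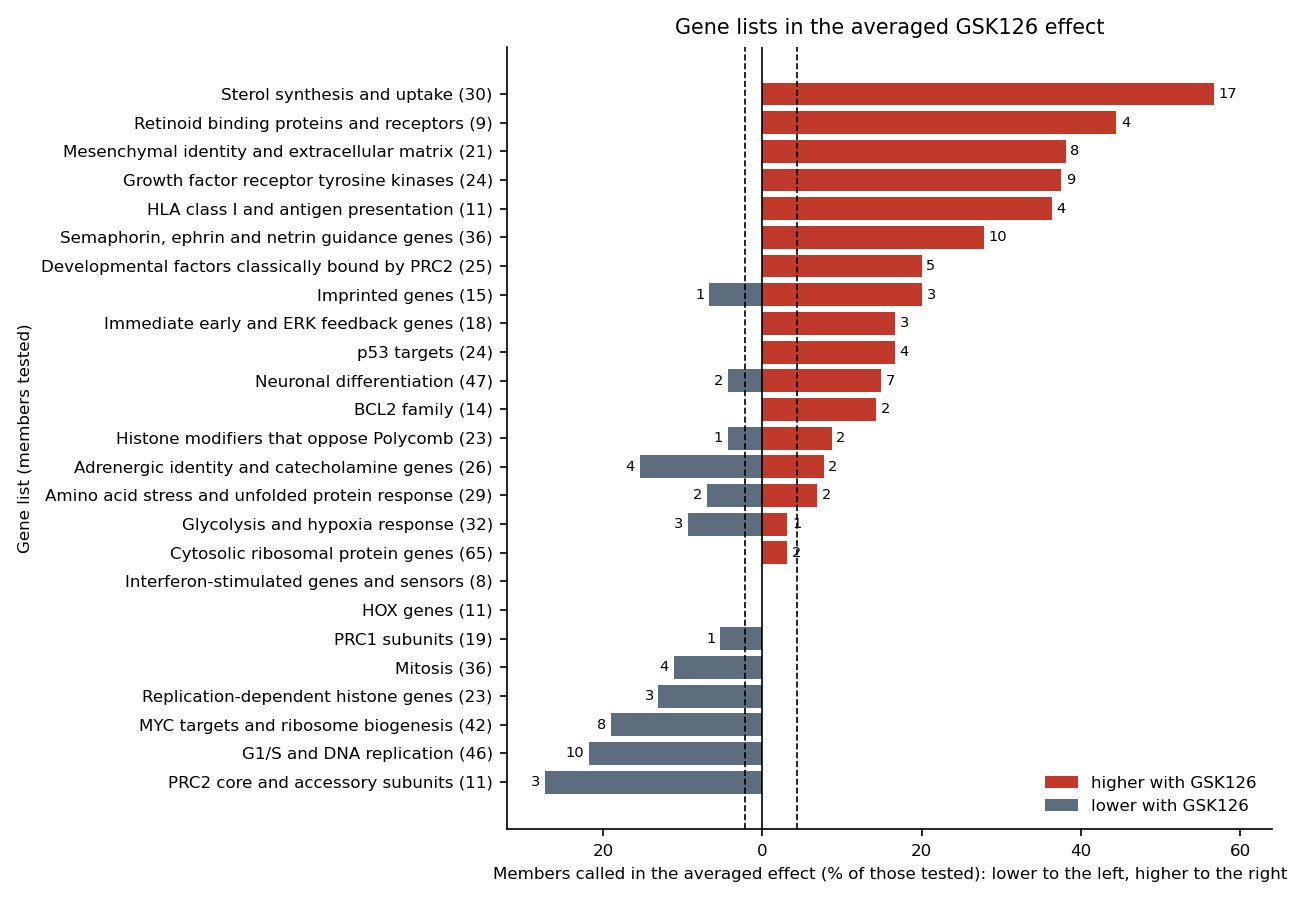
Share of tested members called in the averaged effect for each gene list with 8 or more tested genes (percent, horizontal axis; red higher and grey lower with GSK126, numbers are genes called, tested members in brackets); dashed lines mark the shares over all tested genes, 4.32% higher and 2.16% lower. The sterol list reaches 17 of 30 on the higher side and the G1/S list 10 of 46 on the lower side.

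Of 11 antigen presentation genes HLA-B, HLA-C, TAP2 and CALR rose; HLA class I genes are near-identical, so their reads could be split, and HLA-B and CALR were each called in 4 of the 16 fits that left out 1 library. None of 8 interferon-stimulated genes was called by edgeR or by DESeq2 (2 higher at an unadjusted p under 0.05). Of 9 genes on the retinoid list CRABP2, RXRA, STRA6 and RET rose. RET, the receptor for GDNF-family ligands, is counted on this list and also among the neuronal genes and receptor kinases that rose. Of 24 p53 targets CDKN1A, BTG2, TP53INP1 and PLK2 rose. Calls on the short lists of this paragraph stand beside shares of 4.32% higher and 2.16% lower over all tested genes. They were not tested against those shares. Of 18 immediate early and ERK feedback genes SPRY4, DUSP4 and PHLDA1 rose, of 14 BCL2 family genes BCL2 and BMF rose, and of 15 imprinted genes NDN, PEG3 and KCNQ1OT1 rose and IGF2 fell. DESeq2 called 1 of the antigen presentation genes, 3 retinoid genes, 3 p53 targets, 2 ERK feedback genes and 1 BCL2 family gene higher, and 3 imprinted genes higher and 1 lower. KCNQ1OT1 is an antisense RNA and the strand setting of the counting is not given in the sources used here. Schwann cell and epithelial markers had no tested member, haematopoietic and endothelial markers had 1 each, and neither was called. Summed Schwann cell and glial markers were at 8.30 to 18.3 CPM with GSK126 against 4.49 to 8.22 CPM with DMSO in Kelly, and at 3.09 to 11.0 CPM against 4.08 to 5.76 CPM in LAN-1, with S100B, CDH19 and FABP7 at 0 in every library; summed endothelial markers were at 3.83 to 18.03 CPM against 2.24 to 5.39 CPM in Kelly. Their part in the results was not tested.

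The effect differed between lines for 142 genes (1.20% of genes tested) and between days for 41 (0.346%). Leaving out 1 library moved these counts between 80 (without Kelly DMSO day 5 replicate 2) and 203 (without LAN-1 GSK126 day 5 replicate 1), and between 19 (without LAN-1 DMSO day 5 replicate 2) and 74 (without LAN-1 GSK126 day 5 replicate 1). Of the 768 genes called in the average, 84 differed between lines, 38 of them with opposite signs, and 24 between days, 7 of them with opposite signs. YBX3, a cold-shock domain RNA-binding protein, had no reads in the 4 Kelly DMSO libraries and stood at 4.90 and 2.55 CPM with GSK126 at day 2 and at 24.6 and 23.7 CPM at day 5, at least 3.41-fold and 24.0-fold higher. In LAN-1 it was 0.92-fold and 0.90-fold at day 2 and day 5, and the lines differed at an adjusted p of 1.04e-09. INSR, the insulin receptor, was likewise at 21.3 and 15.3 CPM with GSK126 against no reads with DMSO in Kelly at day 5, at least 18.1-fold higher, and at 165 and 183 CPM against 145 and 136 CPM in LAN-1 at day 5. NOTCH2, a Notch receptor, was at 50 and 57.3 CPM with GSK126 against 1.49 and 0.608 CPM with DMSO in Kelly at day 5, and at 230.1 and 213 CPM against 207 and 173 CPM in LAN-1 at day 5. IGF2, a fetal growth factor, was at 335 and 316 CPM with GSK126 against 258 and 376 CPM with DMSO in Kelly at day 2, where the groups overlapped, and at 179 and 159 CPM against 484 and 423 CPM at day 5. In LAN-1 IGF2 was at 117 and 125 CPM with GSK126 against 152 and 147 CPM with DMSO at day 2, and at 167 and 214 CPM against 149 and 135 CPM at day 5, lower at day 2 and higher at day 5. Of the 82 rising genes with a line difference, 58 changed more in Kelly.

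All 24 rising genes with a day difference changed more at day 5 than at day 2, and all 41 differences were positive (day 5 minus day 2); without LAN-1 GSK126 day 5 replicate 1 the differences were 46 positive and 28 negative. In these 24 the DMSO mean was lower at day 5 than at day 2 in 17 genes in Kelly and in 24 in LAN-1, while the GSK126 mean was higher at day 5 in both lines in 18. AHNAK, a large membrane scaffold protein, shows the pattern: its mean was 255 CPM at day 2 and 359 CPM at day 5 with GSK126 in Kelly, against 242 and 174 CPM with DMSO, and 701 and 890.1 CPM with GSK126 in LAN-1, against 743 and 345 CPM with DMSO. RET had means of 238 CPM at day 2 and 219 CPM at day 5 with GSK126 in Kelly, against 194 and 91.8 CPM with DMSO. PLXNA2 had means of 146 and 147 CPM with GSK126 in LAN-1, against 126 and 55.4 CPM with DMSO. For RET in Kelly and PLXNA2 in LAN-1 the larger difference at day 5 thus lay in the DMSO libraries. These levels entered the test of the day difference and are a description of it.

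At equal depth, more genes were detected with GSK126. With every library thinned to 912095 counts, the expected number of genes with at least 1 read was higher in GSK126 than in DMSO libraries by 380.9 on average (424 at day 2 and 674.5 at day 5 in Kelly, 132.5 and 292.5 in LAN-1). The exact two-sided permutation test within strata gave p = 0.00154, the smallest that its 1296 regroupings allow. At 5 or more reads the difference was 253.8 genes (exact permutation p = 0.00154). Without thinning it was 274.8 genes (exact permutation p = 0.0772), and the difference was -144.5 genes in LAN-1 at day 2. This measure was chosen after the values were seen, so its p-values are a description.

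**Figure D5:**
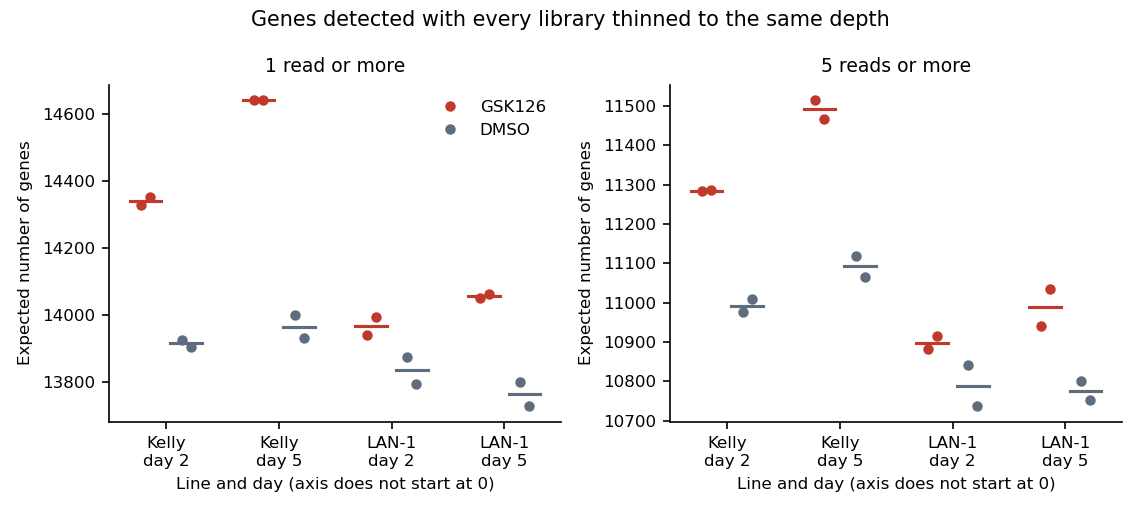
Expected number of genes detected (vertical axes, which do not start at 0) with each library thinned to the same depth, at 1 read or more (left) and 5 reads or more (right); points are libraries, bars means, red GSK126 and grey DMSO. In all 4 strata both GSK126 libraries lie above both DMSO libraries, with means of 14640 genes with GSK126 and 13966 with DMSO at 1 read or more in Kelly at day 5.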

How the data were processed

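Total RNA was taken up with a column kit and made into Illumina libraries, per the labels' protocols. The submitters' processing notes name TopHat2, featureCounts, FastQC and the build GRCh37 (hg19), with no versions. For strand setting, annotation, RNA selection and reads with several matches, nothing is given in the sources used here. Raw whole-number counts per gene symbol were deposited by the authors for all 16 libraries. Of 25728 symbols, 21873 matched RefSeq symbols directly, 1441 an older symbol and 2414 none; 28 had been turned into dates and were not named. Single values of some genes are not reported here and are left out of the figures, while counts of genes include them.

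From these counts, edgeR 4.0.16 (R 4.3.3) filtered genes on a minimum count of 10 over the 8 groups, scaled libraries by TMM (factors 0.9774 to 1.026) and fitted 1 mean per group by quasi-likelihood (8 residual degrees of freedom; biological coefficient of variation 5.314%). Contrasts were the mean of the 4 within-stratum differences, each stratum, and the differences between lines and between days. p-values were adjusted over all 11863 genes and called under 0.05. CPM are counts per 1000000 of the TMM-scaled library total. A gene with no reads in a whole stratum (309 genes) cannot be called in the average. Floors and 95% intervals (exact Clopper-Pearson) cover counting error only. The fit was tested on simulated data.

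Named genes were 10 fixed ones, the 15 largest rises and falls among genes of 1 direction without overlap and at 10 CPM or more in some group, 5 each way called in no stratum, up to 6 opposite between lines and between days, and up to 4 called per list; others were picked after their values were seen, among them the 180 genes held in every fit. The comparison and the 31 gene lists were chosen with earlier results of these data known. Alternatives were RLE scaling, DESeq2 1.42.0, other filters, a replicate block, an offset for GC content (known for 98.57% of genes), both together, an additive model, subsets of strata, each library left out and, chosen after the data were seen, both libraries that stand apart left out together. Replicate numbers were not shown to pair libraries: deviations of same-numbered libraries correlated at -0.0829, -0.0428, -0.0709 and 0.0748 in the 4 strata.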

Additional observations from a re-analysis of the deposited data

Results flagged for a closer look

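The GSK126 effect differed between lines for 142 genes and between days for 41 genes in the tests of the difference itself, each by edgeR's quasi-likelihood test with adjustment over all tested genes. The following named genes are among them, and each value is the adjusted p of the difference.

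Between lines (Kelly minus LAN-1), genes with few or no reads in Kelly with DMSO in some group included NOTCH2 at 1.3e-13, YBX3 at 1.04e-09, INSR at 2.96e-08, CECR2 at 1.63e-05, COL2A1 at 6.95e-05, CDK14 at 0.000252, SNX10 at 0.00477, USP51 at 0.0133, COTL1 at 0.0201 and DTX3L at 0.0213. CDKN1A differed at 0.0133 and is nearly silent in LAN-1 with DMSO. Among genes expressed in both lines, VIM (0.000941) rose more in Kelly and COL6A1 (0.000497) rose more in LAN-1, while IGF2 (2.72e-05) was lower in Kelly at day 5 and in LAN-1 at day 2, overlapped in Kelly at day 2 and was higher in LAN-1 at day 5. PDGFRA differed at 0.0156, PHLDA1 at 0.00631 and NDN at 0.00404, all with larger changes in Kelly, PFKP at 0.0128 with the larger change in LAN-1, and MYCN at 0.0123 with a negative change in Kelly and a positive one in LAN-1.

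Between days (day 5 minus day 2), the 41 differences were all positive with all libraries, although not under every alternative, and those of named genes were AHNAK at 4.92e-19, PLXNA4 at 5.81e-12, IGFBP5 at 6.84e-08, UNC5B at 8.23e-06, PLXNA2 at 8.92e-06, RET at 1.44e-05, PIK3R1 at 0.000202, CREBBP at 0.00465, ZFHX3 at 0.00529, PLK2 at 0.0102, SNAP91 at 0.0278, HAND1 at 0.0316 and KCNQ1OT1 at 0.0478. AHNAK, IGFBP5, PIK3R1, UNC5B, ZFHX3, SNAP91 and CREBBP had averaged day 2 changes of the opposite sign, none of them called at day 2.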

How the results depend on the processing

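The totals of 768 called genes and 565 of 1 direction stayed within 1.5 times under RLE scaling, both filters, the replicate block, the GC offset and every single library left out (577 to 960 and 418 to 663), and the first also in the additive model (539), which has no strata for the second. The 256 lower calls moved further, to 433 without LAN-1 GSK126 day 5 replicate 1, 413 with the GC offset, 404 with GC offset and block and 161 in the additive model, and the 214 of 1 direction to 140 without Kelly GSK126 day 2 replicate 1 and 330 with the GC offset. They did not under DESeq2 (289 and 218), LAN-1 alone (268 and 262), day 2 alone (29 for both), without Kelly at day 5 (334 and 293) or without LAN-1 at day 5 (395 and 326), and Kelly alone called 496. With the replicate block 722 and 522 genes were called, and the numbers were not shown to pair the libraries. The line difference (142 genes) gave 36 with DESeq2 and 80 to 203 with 1 library left out, lowest without Kelly DMSO day 5 replicate 2 (80), LAN-1 DMSO day 5 replicate 1 (87) and LAN-1 GSK126 day 2 replicate 2 (92). The day difference (41 genes) gave 21 with DESeq2, 86 with the GC offset, 87 with GC offset and block, 96 without both libraries that stand apart, and 19 to 74 with 1 library left out: 19 without LAN-1 DMSO day 5 replicate 2, 20 without Kelly DMSO day 2 replicate 2, 22 without LAN-1 GSK126 day 2 replicate 1, 23 without Kelly DMSO day 5 replicate 1, 24 without LAN-1 DMSO day 2 replicate 2, 25 without Kelly GSK126 day 2 replicate 2 and 74 without LAN-1 GSK126 day 5 replicate 1. Its 41 positive and 0 negative calls were 46 and 28 without LAN-1 GSK126 day 5 replicate 1, 71 and 15 with the GC offset, and 79 and 17 without both libraries that stand apart. The cause was not tested. Of 123 named genes called, 89 were called with every library left out in turn.

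Averaged log2 fold changes turned sign in LAN-1 alone for YBX3 (-0.14), CECR2 (-0.17), DTX3L (-0.06656), CDK14 (-0.10), USP51 (-0.46), SNX10 (-0.44), PHLDA1 (-0.02004), NDN (-0.00077) and IGF2 (0.04271); at day 2 alone for SNAP91 (-0.03119), AHNAK (-0.004544), IGFBP5 (-0.003822), PIK3R1 (-0.01702), UNC5B (-0.03346), ZFHX3 (-0.07395) and CREBBP (-0.05092); in Kelly alone for PFKP (-0.01714); without Kelly at day 5 for SNX10 (-0.13) and IGF2 (0.03355); without LAN-1 at day 5 for ZFHX3 (-0.01156); and in the additive model for CECR2 (-0.06945). With 912095 to 1666190 counts per library, changes of genes near 0 in DMSO are bounds or ratios with wide intervals.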
